A study of Oryza sativa with 7 samples.

Results

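The genes described here are the rows of a rice gene table whose identifiers run from Os11g0590000 to Os11g0625000 on chromosome 11. They make up 179 of the 35825 rows of the table. Identifiers of the Rice Annotation Project (RAP) name the chromosome first and then number gene models along it, so rows in identifier order are taken here as neighbours. The range was chosen because genes in it had been seen to differ between mutant and wild type grains in these same libraries. The differences between mutants and WT below are therefore a description of the members, with no test.

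The grains came from rice plants grown in paddy fields in summer and were collected 2 days after fertilization. Values were available for 2 libraries of the mutant osbzip76-1, 1 library of the mutant osbzip76-2 and 3 libraries of the wild type (WT), which the sample titles give as the cultivar Kitaake. The mutants are independent alleles of OsbZIP76, and the labels do not name the cultivar they were made in. The groups share the growth text and the stage. The labels call the tissue caryopsis, while the extraction text speaks of endosperm, and the kind of lesion in each allele is not given in the sources used here. The series set the mutants against WT because loss of OsbZIP76 brings endosperm cellularization forward. The transcript of OsbZIP76 was not analysed here, so the mutated gene gives no check of the genotype labels.

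A rice caryopsis is the young grain: the endosperm and the embryo inside maternal seed coats and pericarp. Its endosperm begins as a syncytium, in which nuclei divide without walls, and then forms cell walls in the step called cellularization. OsbZIP76 encodes a transcription factor of the basic leucine zipper class, which binds DNA as a dimer. Rice chromosome 11 is known for clusters of disease resistance genes, which often differ in number and sequence between cultivars. No source used here annotates any row of the range, so the members are given by identifier alone.

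Levels are RPKM, reads scaled by the length of the gene model and by the depth of the library, and are thus on a scale per length. The totals behind the libraries were recovered from the steps of the values and ran from 19900850 to 24887952 reads. Endosperm genes were present in every library: BEIIb (Os02g0528200), a starch branching enzyme, stood at 212 to 250 RPKM in mutant grains, against 49.5 to 121 RPKM in WT grains, and FIE1 (Os08g0137100), an endosperm Polycomb gene, at 61.3 to 65.8 RPKM in mutant grains, against 59.7 to 77.1 RPKM in WT grains. MADS29 (Os02g0170300), a factor of maternal seed tissue, stood at 64.0 to 87.7 RPKM in mutant grains, against 98.4 to 140 RPKM in WT grains. The endosperm gene BT1 (Os02g0202400) stood at 201 to 251 RPKM in mutant grains, against 12.3 to 115 RPKM in WT grains. NF-YB1 (Os02g0725900), also of the endosperm, stood at 6.42 to 22.4 against 2.62 to 7.40 RPKM. The pericarp gene GBSSII (Os07g0412100) stood at 78.1 to 101 against 95.9 to 123 RPKM. BEIIb, BT1 and MADS29 thus did not overlap between the groups, while FIE1, NF-YB1 and GBSSII did. The part of tissue makeup in the results below was not tested. In whole grains, fewer cells of a type and less RNA per cell cannot be told apart. WT replicate 2 stood apart from the other libraries, scoring 61.3 on principal component 1, against -30.5 to 2.97 for the rest. The sorting of the members without it is given at the end.

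The range was not a silent block. Of its 179 members, 30 had no read in any library and 88 in all had a mean under 1 RPKM in both mutants and WT. The other 91 members, called expressed below, were sorted by fixed limits. A member was called silent if its WT mean reached 1 RPKM and every mutant library lay under 0.1 RPKM. It was called lower or raised if the mutant mean was at most 1/2 or at least 2 times the WT mean and no mutant library overlapped WT. On these limits 4 members were silent, 7 were lower (11 silent or lower), 6 were raised and 74 were none of these. Over all 21979 expressed rows of the table, 0.0455% were silent, 0.660% lower and 2.14% raised, and 0.705% silent or lower. As these values chose the range, nothing is read from the distance between its counts and those shares.

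**Figure D1:**
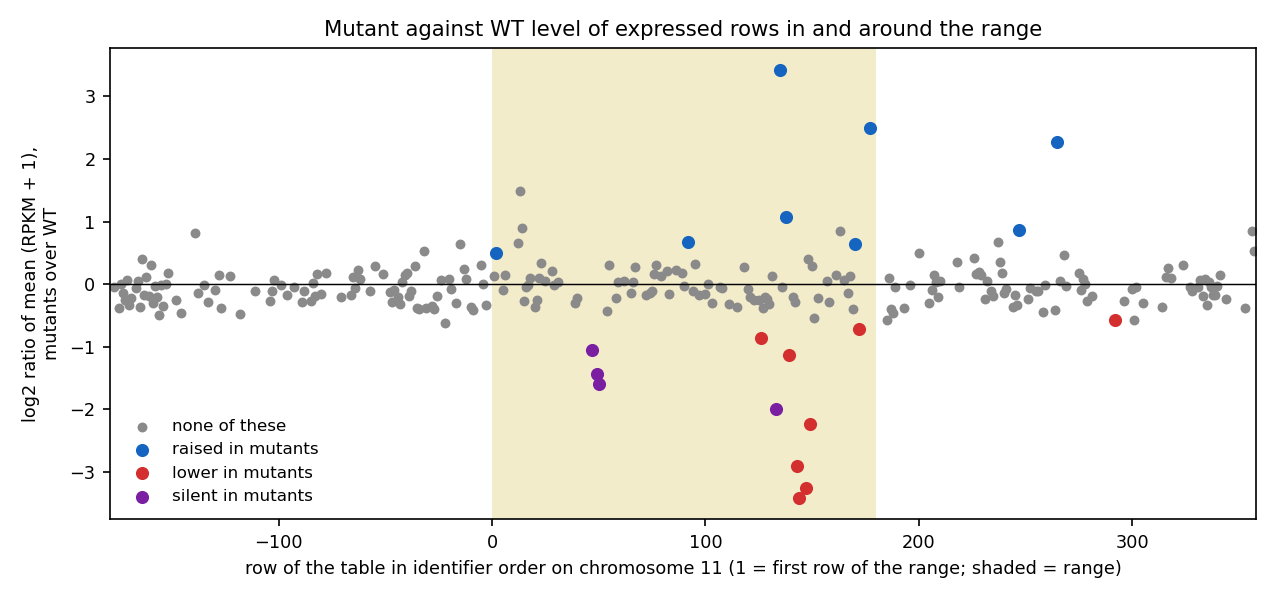
Log2 ratio of mean RPKM + 1 of the 3 mutant libraries over the 3 WT libraries (vertical axis) for each expressed row of chromosome 11 in identifier order (horizontal axis), with the 179 rows of the range shaded and 179 rows shown on each side. The 11 silent or lower members sit at rows 47 to 50, rows 126 to 149 and row 172 of the range, and grey rows near 0 lie between them.

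The silent and lower members formed 2 groups with a long stretch of other rows between them. The first group was at rows 47 to 50 of the range and the second at rows 126 to 149, and 1 further lower member stood at row 172. Ahead of the first group lay 46 rows, of which 21 were expressed and 20 were neither silent, lower nor raised. Between the groups lay 75 rows, of which 35 were expressed and 34 were none of these. The groups were bounded at their first and last silent or lower members, so the stretch between them holds none by that choice. Raised rows under 1 RPKM did lie there. With the limit on the group mean at 0.5 RPKM, Os11g0598500, Os11g0603100, Os11g0606400 and Os11g0609700 also counted as raised. The silent and lower members thus came in patches, and 4 of the 5 members with the highest WT means lay outside these.

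In the first group, 3 of 3 expressed members were silent. Os11g0597601 had 0 RPKM in all 3 mutant libraries, against 0.861, 1.42 and 0.962 RPKM in WT replicates 1 to 3. Os11g0598000 had 0 RPKM in all 3 mutant libraries, against 1.67, 1.41 and 2.02 RPKM in WT. These are low levels, and the depth behind them was 96 and 158 WT reads in all against no mutant read. With a floor of 3 reads put in for the 3 mutant libraries, the mutant level was 28.9-fold lower for Os11g0597601 and 47.6-fold lower for Os11g0598000. The exact 95% intervals for counting error began at 23.1-fold and 38.3-fold. Os11g0598200 had 0.0453 and 0.0285 RPKM in osbzip76-1, with 0.0254 RPKM in osbzip76-2, against 1.66, 1.98 and 2.77 RPKM in WT. Its 7 mutant reads against 510 WT reads gave a mutant level of 0.0152 times WT, with an exact 95% interval from 0.00607 to 0.0315 that covers counting error only.

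The edges of this first group were set at its first and last silent members, and lower means were also present just outside them. The remaining row of the group, Os11g0597700, lay under 1 RPKM in both groups and had no mutant read and 15 WT reads. The row before the group, Os11g0597500, had a mean of 0.359 RPKM in mutant grains, against 0.725 RPKM in WT grains, and the one before that, Os11g0597400, had 0.665 and 0.709 RPKM. After the group, Os11g0598300 had 0.0248 RPKM in mutant grains, against 0.159 RPKM in WT grains. Os11g0598500 went the other way, at 0.428, 0.575 and 0.622 RPKM in the mutants against 0.0643, 0.0918 and 0.0519 RPKM in WT. The next expressed row, Os11g0598800, stood at 7.12 ± 1.30 RPKM in mutant grains, against 9.94 ± 1.08 RPKM in WT grains (SD, n = 3 each). These low neighbours were picked once their values were known, and their reads are too few for a sharper statement.

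**Figure D2:**
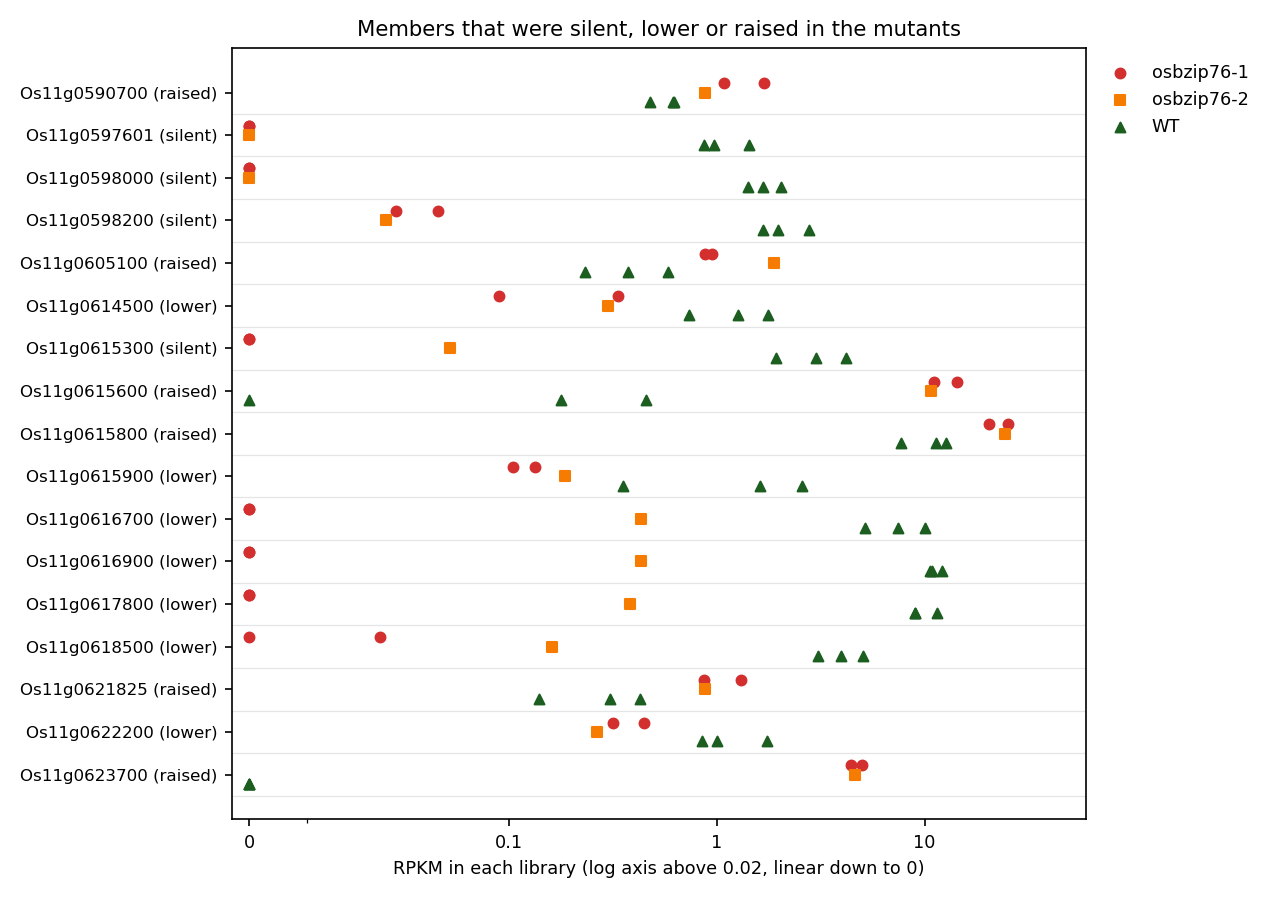
RPKM of each library (horizontal axis, logarithmic above 0.02 and linear down to 0) for the 17 members that were silent, lower or raised, in identifier order from top to bottom. In each row the osbzip76-1 libraries are drawn above the osbzip76-2 library and the 3 WT libraries below both; the mutant points lie to one side of the WT points throughout, as the limits require.

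The second group held 7 of the 11 silent or lower members. In 24 rows it had 18 expressed members, of which 1 was silent, 6 were lower, 2 were raised and 9 were none of these. Its core was a run of 7 table rows from Os11g0616700 to Os11g0618500, in which 4 of 5 members with a WT mean of at least 1 RPKM were lower. Os11g0616900, which had the highest WT mean of the silent and lower members, had 0 and 0 RPKM in osbzip76-1, with 0.428 RPKM in osbzip76-2, against 10.6, 10.8 and 12.1 RPKM in WT. It was represented by 46 mutant reads and 3631 WT reads, so the mutant level was 0.0140 times WT (exact 95% interval 0.0102 to 0.0187). Os11g0617800 had 0 and 0 RPKM in osbzip76-1, with 0.379 RPKM in osbzip76-2, against 8.98, 11.4 and 9.00 RPKM in WT. In both genes every WT library lay far above the osbzip76-2 library, the highest of the mutants.

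The other members of the run had the same pattern over the libraries. Os11g0616700 had 0 and 0 RPKM in osbzip76-1, with 0.430 RPKM in osbzip76-2, against 7.41, 10.1 and 5.18 RPKM in WT. Os11g0618500 had 0.0238 and 0 RPKM in osbzip76-1, with 0.160 RPKM in osbzip76-2, against 3.95, 3.08 and 5.06 RPKM in WT. In each of them osbzip76-2 was the highest of the mutant libraries and still far under the lowest WT library. Os11g0617700, inside the run, had no read in any mutant library against 1.36, 0.628 and 0.953 RPKM in WT. Its WT mean of 0.981 RPKM lay just under the limit of 1 RPKM, so it is not among the members counted as silent. Os11g0618300, also inside the run, was not lower: it stood at 3.04, 3.00 and 2.94 RPKM in mutant grains, against 1.61, 1.91 and 2.56 RPKM in WT grains. The run is therefore not an unbroken stretch of loss.

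In the rows before the run, the second group was more mixed. Os11g0615300 was silent, at 0 and 0 RPKM in osbzip76-1 with 0.0519 RPKM in osbzip76-2, against 3.00, 4.20 and 1.92 RPKM in WT; this was 1 mutant read against 175 WT reads. The ratio of mutant to WT was 0.00632, with an exact 95% interval from 0.000159 to 0.0357. Os11g0614500 was lower, at 0.0889 and 0.335 RPKM in osbzip76-1, with 0.299 RPKM in osbzip76-2, against 1.26, 0.730 and 1.77 RPKM in WT. Os11g0615900 was lower, at 0.133 and 0.104 RPKM in osbzip76-1, with 0.186 RPKM in osbzip76-2, against 1.61, 0.352 and 2.57 RPKM in WT. In Os11g0614500 and Os11g0615900 the mutants kept more of the WT level than in the run, and WT replicate 2 was the lowest WT library. Both missed the limits for a lower member when WT replicate 3 was left out.

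The rows right beside the run were neither silent nor lower, but Os11g0615900, the third WT-expressed row before it, was lower. The nearest WT-expressed row before it, Os11g0616300, stood at 0.761 ± 0.126 RPKM in mutant grains, against 1.14 ± 0.14 RPKM in WT grains, and Os11g0616200 at 16.0 ± 1.9 against 18.6 ± 0.7 RPKM (SD, n = 3 each). After it, Os11g0618600 stood at 1.74 ± 0.13 RPKM in mutant grains, against 1.25 ± 0.43 RPKM in WT grains, Os11g0618700 at 1.46 ± 0.35 against 2.56 ± 0.15 RPKM, and Os11g0618850 had means of 1.18 and 1.54 RPKM. Of these Os11g0618700 had the largest gap, with a mutant mean of 0.569 times WT. The groups did not overlap in Os11g0616200, Os11g0616300 and Os11g0618700, with the mutants below WT, or in Os11g0618600, with the mutants above. They overlapped in Os11g0618850. Among all expressed rows of the table, 12.3% had the groups apart with the mutants below and 9.60% with the mutants above. Further on, Os11g0622200 was lower, at 0.314 and 0.444 RPKM in osbzip76-1, with 0.264 RPKM in osbzip76-2, against 0.843, 1.74 and 1.00 RPKM in WT. This rested on 14 mutant and 54 WT reads, and the member missed the limits without WT replicate 2.

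The 6 raised members were scattered among the others, and the gap was widest in Os11g0615600 and Os11g0623700. Os11g0615600, at row 135 and inside the second group, had 11.1 and 14.3 RPKM in osbzip76-1, with 10.8 RPKM in osbzip76-2, against 0.453, 0.177 and 0 RPKM in WT. With 782 mutant and 15 WT reads, its mutant level was 57.6 times WT (exact 95% interval 34.7 to 103). Os11g0623700, at row 177 near the end of the range, had 4.97 and 4.43 RPKM in osbzip76-1, with 4.60 RPKM in osbzip76-2, against 0 RPKM in all 3 WT libraries. With a floor of 3 reads put in for the WT libraries, its 335 mutant reads made it 123-fold higher in the mutants. The exact 95% interval for counting error began at 99.9-fold. It was the 1 member detected in mutants alone by the limits, which 0.127% of all expressed rows were. In both genes all mutant libraries lay far above all WT libraries.

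The other raised members changed less. Os11g0615800, inside the second group, had 25.3 and 20.5 RPKM in osbzip76-1, with 24.3 RPKM in osbzip76-2, against 12.7, 7.74 and 11.4 RPKM in WT. Os11g0605100, in the stretch between the groups, had 0.876 and 0.949 RPKM in osbzip76-1, with 1.88 RPKM in osbzip76-2, against 0.579, 0.232 and 0.373 RPKM in WT. Each of these had no overlap between mutants and WT, but their mutant means were only 2.20 and 3.13 times WT. Os11g0590700, the second row of the range, stood at 1.21 ± 0.42 RPKM in mutant grains, against 0.569 ± 0.080 RPKM in WT grains, and Os11g0621825 at 1.01 ± 0.25 against 0.290 ± 0.145 RPKM (SD, n = 3 each), from 19 and 6 reads. All 4 missed the limits when 1 or another single library was left out.

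Under 1 RPKM some members had reads in mutants alone or in WT alone. Of the 88 members below that level in both groups, 2 had no read in the mutants and reads in every WT library, and 3 had the reverse. The same share over all rows below 1 RPKM was not computed, so nothing is read from these counts. Os11g0609700, picked once its values were known, had 1.11, 0.811 and 0.665 RPKM in the mutants and no read in WT, from 157 mutant reads. Os11g0623200 had 0.578, 0.545 and 0.694 RPKM in the mutants and no read in WT, from 24 mutant reads. With the limit on the group mean set to 0.5 RPKM in place of 1 RPKM, 13 members were silent or lower and 11 were raised, and 4 were detected in mutants alone. Over all rows that passed this limit, 1.00% were silent or lower, 2.54% were raised and 0.282% were detected in mutants alone.

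Most expressed members did not meet any of the limits. Of the 74, 67 had a mutant mean within 1.5-fold of WT, which is 90.5% of them, beside 90.1% of such rows outside the range. Their ratios of mutant to WT means had a median of 0.955, beside 0.979 outside the range. Among them were the 5 members of the range with the highest WT means: Os11g0602600 stood at 615 ± 92 RPKM in mutant grains, against 563 ± 61 RPKM in WT grains, and Os11g0602500 at 355 ± 69 against 287 ± 86 RPKM (SD, n = 3 each). Os11g0620100 stood at 187 ± 33 against 229 ± 28 RPKM, Os11g0615700 at 115 ± 4 against 120 ± 10 RPKM, and Os11g0591100 at 50.2 ± 6.5 against 53.8 ± 4.0 RPKM. Mutant and WT libraries overlapped in all 5 of these genes. Os11g0615700 lies inside the second group, beside Os11g0615600.

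The silent and lower members were of low abundance in WT. Their WT means ran from 1.08 to 11.2 RPKM with a median of 2.13 RPKM. The 74 members that met no limit had a median WT mean of 7.70 RPKM, and 29 of them had a higher WT mean than any silent or lower member. Over all expressed rows of the table the median WT mean was 9.32 RPKM. The 11 silent or lower rows of chromosome 11 outside the range had WT means from 1.02 to 22.9 RPKM, most of them also low. A low WT level was thus not particular to the range.

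Some members varied widely among libraries of one genotype. The neighbours Os11g0592000, Os11g0592100 and Os11g0592200 were among them, and were picked once their values were known. Os11g0592100 had 6.47 and 28.9 RPKM in osbzip76-1, with 37.8 RPKM in osbzip76-2, against 6.20, 7.79 and 10.1 RPKM in WT. Os11g0592200 had 36.7 and 93.0 RPKM in osbzip76-1, with 105 RPKM in osbzip76-2, against 26.6, 25.4 and 72.9 RPKM in WT. In both, osbzip76-1 replicate 1 lay within the WT range while the other mutant libraries lay above it. Os11g0620500 was high in 1 library alone, at 3.00 RPKM in osbzip76-2, with 0.162 and 0.362 RPKM in osbzip76-1, against 0.134 to 0.340 RPKM in WT.

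Over all 91 expressed members, every mutant library lay below every WT library in 24 and above in 10. Among all expressed rows of the table, 12.3% had the groups apart in the lower direction and 9.60% in the higher direction. The count of higher members is near that background. Genes were also tested over the whole table with limma on log2(RPKM + 1), which 78 members entered with a mean of at least 1 RPKM over the 6 libraries. In mutants against WT, 6 members passed as lower and 2 as higher at an adjusted p under 0.05, beside 0.0886% and 0.298% of all 21454 genes tested. The range was chosen on this contrast, so the counts carry no further weight. The 6 were Os11g0598200, Os11g0615300, Os11g0616700, Os11g0616900, Os11g0617800 and Os11g0618500, and the 2 were Os11g0615600 and Os11g0623700. The median log2 fold change was -0.04 over the 78 members and -0.02 over all genes tested. Without WT replicate 1 the count of lower members was 3, and without WT replicate 2 it was 4.

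Taken one at a time, the alleles were sorted by the same limits against the same 3 WT libraries, which the comparisons share. In osbzip76-1, 12 members were silent or lower and 5 were raised, beside 1.84% and 2.41% of all rows expressed in that comparison. In the osbzip76-2 library, 12 were silent or lower and 8 were raised, beside 1.15% and 5.61% of all rows. These values also chose the range, so they describe it and test nothing.

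More of the lost transcripts was left in the single osbzip76-2 library than in osbzip76-1 at the 4 lower genes of the run. They were lower and not silent because osbzip76-2 lay above 0.1 RPKM, so their class picked this pattern. Of 8 members with at most 2% of WT in osbzip76-1, 5 were higher in osbzip76-2, beside 5 of 10 such rows elsewhere. By reads, Os11g0598200 stood at 1.71% of WT in osbzip76-1 (exact 95% interval 0.553% to 4.01%) and 1.19% in osbzip76-2 (0.143% to 4.30%). Os11g0622200 stood at 32.3% (14.7% to 64.0%) and 22.4% (5.89% to 60.7%). These intervals overlap widely, so neither gene shows a direction between the alleles. With osbzip76-2 left out, 8 members counted as silent in place of 4, beside 20 in place of 10 over all rows of the table. Reads of Os11g0616900 stood at 3.83% of the WT level in osbzip76-2, with an exact 95% interval from 2.80% to 5.12%. In osbzip76-1 there was no read, which leaves an interval up to 0.177%. Os11g0618500 stood at 3.94% of WT in osbzip76-2 (interval 2.25% to 6.43%) and at 0.284% in osbzip76-1 (interval 0.0344% to 1.03%). Os11g0617800 stood at 3.88% of WT in osbzip76-2 and Os11g0616700 at 5.75%, and osbzip76-1 had no read of either. These 4 genes were thus at 3.83% to 5.75% of WT in the osbzip76-2 library. Os11g0597601, Os11g0598000 and Os11g0617700 had no read in either allele. These intervals cover counting error in single libraries and not the spread between plants.

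**Figure D3:**
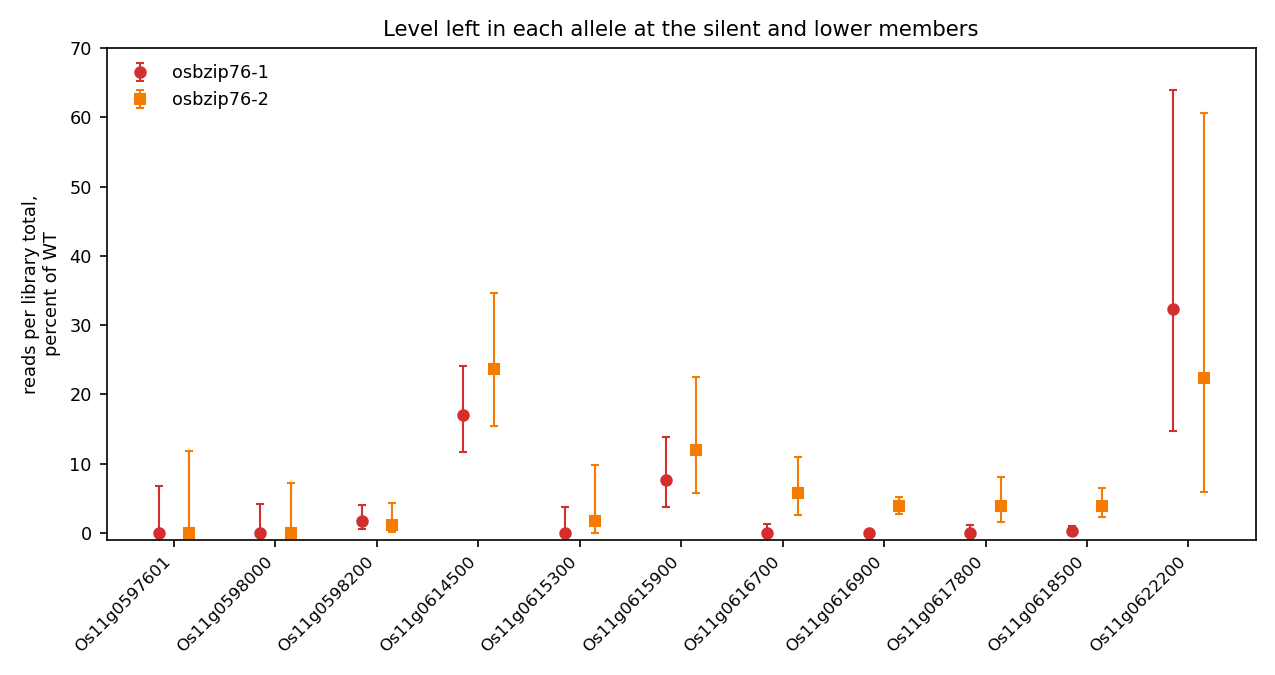
Reads per library total as a percent of WT (vertical axis) in osbzip76-1 (2 libraries, circles) and osbzip76-2 (1 library, squares) for the 11 silent and lower members in identifier order. Bars are exact 95% intervals for counting error; the 4 genes from Os11g0616700 to Os11g0618500 stand at 3.83% to 5.75% in osbzip76-2 and at most 0.284% in osbzip76-1.

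The difference between the alleles did not choose the range, so it could be tested, on the assumption that the 1 osbzip76-2 library varied like the others. The silent or lower members in this test passed the filter through their WT level, with at most 0.430 RPKM in any mutant library. On the log2(RPKM + 1) scale a difference between alleles could hardly be called for them, so no conclusion is drawn about those members. None of the 78 members tested passed limma at an adjusted p under 0.05, beside 0.0326% of all genes lower and 0.182% higher in osbzip76-2. The smallest adjusted p among them was 0.998, and none had an unadjusted p under 0.05 in limma, beside 4.92% of all genes tested. Voom on the recovered reads also called none, beside 0.00466% of all genes lower and 0.0373% higher. Without WT replicate 2, none of 77 members passed, beside 0.167% of all genes lower and 1.06% higher. With no filter on low values, 1 of 149 members passed, Os11g0620500, which was higher in osbzip76-2. Over all genes tested at that setting, 0.0319% passed as lower and 0.540% as higher, so nothing is read from this 1 member. For Os11g0616900 the log2 fold change of osbzip76-2 over osbzip76-1 was 0.51 with a standard error of 0.23 (unadjusted p = 0.0591 in limma) on the log2(RPKM + 1) scale, which compresses changes at such low levels. Outside the range, the table held 10 silent or lower rows with at most 2% of the WT level in osbzip76-1. On mean RPKM, these had a median of 0.578% of WT in osbzip76-2 and 4 of them stood at 2% to 8%. In the range 8 members met that description, with a median of 2.77% in osbzip76-2, and 4 of them stood at 2% to 8%.

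The rows around the range were sorted by the same limits. Of the 179 rows before the range 90 were expressed, and none was silent, lower or raised. Of the 179 rows after it 78 were expressed, of which 1 was lower and 2 were raised. These are 1.28% and 2.56%, beside 0.705% silent or lower and 2.14% raised over all expressed rows of the table. Change after the range was thus no rarer than over the table, and such small counts mark no boundary. The nearest silent or lower row of chromosome 11 before the range was Os11g0460900, 479 rows away, and the nearest after it was Os11g0652100, 113 rows away. The nearest raised rows were Os11g0526000, 288 rows before the range, and Os11g0641500, 68 rows after it. The 3 rows on each side of the range had at most 0.211 RPKM in any library, so the limits of the range itself fell among unexpressed rows. Inside the limits, the first expressed row, Os11g0590400, had means of 1.23 RPKM in mutant grains, against 1.04 RPKM in WT grains.

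The same sorting was run over every chromosome as a description. The range held 0.414% of the expressed rows of the table. It held 4 of the 10 silent rows of the table, and 11 of the 22 silent or lower rows of chromosome 11. In a run walked over WT-expressed rows that may skip 1 row, the longest run of the table was the one from Os11g0616700 to Os11g0618500 with 4 silent or lower rows. The next had 3 such rows each: Os02g0616300 to Os02g0617075 on chromosome 2, and Os11g0597601 to Os11g0598200. If 3 rows could be skipped, the run reached from Os11g0615300 to Os11g0618500, with 6 such rows over 17 table rows. If none could be skipped, the longest run had 3 such rows and lay outside the range, from Os02g0616300 to Os02g0617075 on chromosome 2 over 6 table rows. In stretches of 20 neighbouring WT-expressed rows, chromosome 11 reached 7 silent or lower rows, from Os11g0610900 to Os11g0618500. The fullest stretch of any other chromosome held 4 such rows, on chromosome 7.

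**Figure D4:**
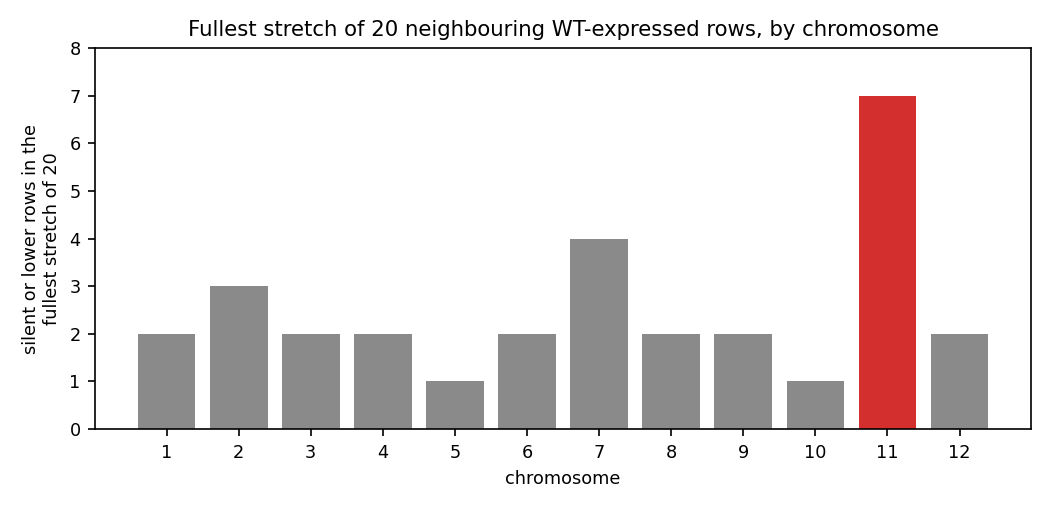
Highest number of silent or lower rows in any stretch of 20 neighbouring WT-expressed rows (vertical axis) for each of the 12 chromosomes (horizontal axis). Chromosome 11, in red, reaches 7 and the others 1 to 4.

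How far the members' sorting rests on single libraries was checked by leaving out each in turn. Of the 17 silent, lower or raised members, 9 stayed on their side of WT by the limits whichever library was left out: 7 silent or lower members and 2 raised ones. The 7 were Os11g0598000, Os11g0598200, Os11g0615300, Os11g0616700, Os11g0616900, Os11g0617800 and Os11g0618500, and the 2 were Os11g0615600 and Os11g0623700. Without WT replicate 2, which stood apart, 10 members were silent or lower and 6 were raised. The WT mean of Os11g0597601 then lay under the limit of 1 RPKM.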

How the data were processed

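Values are RPKM per gene and library, as the authors deposited them in 1 table of 35825 rows with 6 library columns. The build was IRGSP 1.0, per the submitters' processing notes; for the aligner, counter, strandedness and annotation: not given in the sources used here. The second osbzip76-2 library in the labels, replicate 1, was not analysed here. The authors' deposited mean columns equalled the library means to within 3.33e-06 RPKM.

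RPKM hides depth, so whole reads were recovered from its steps: 100.00% of 168975 values above 0 came out whole within 0.02 reads. These reads gave the totals, read counts and exact 95% intervals (Clopper-Pearson), which cover counting error only. The series text calls the replicates biological, and nothing else shows that they came from separate plants, so p-values measure the spread between these libraries. Whether replicate numbers pair the libraries could not be told. With 2 osbzip76-1 libraries, their deviations from the group mean mirror each other. Their correlations with WT were thus -0.011 and -0.0966 for the same number, and 0.011 and 0.0966 with the same WT libraries for the other number.

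Tests used limma 3.58.1 in R 4.3.3 on log2(RPKM + 1), with trend and Benjamini-Hochberg adjustment, over 21454 genes with a mean of at least 1 RPKM. A fold change on this scale understates the change of low genes. The limma calculation was tested on simulated data. Expressed rows had a group mean of at least 1 RPKM; raised, lower and silent rows were sorted by the limits in the text, and 341 rows without a RAP identifier have no place in the order. Every silent, lower or raised member was named, with the 5 others of highest WT mean and the rows at the edges. The members, lists and limits were chosen with earlier results of these data known. Genes with near-identical copies, or overlapping or antisense neighbours, may share reads, and their values are uncertain to that extent. Alternatives were other pseudocounts, limits, scalings, a replicate block, voom on the reads and leaving out libraries.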

Additional observations from a re-analysis of the deposited data

How the results depend on the processing

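The silent or lower members numbered 11, and 10 to 12 when any 1 library was left out, but 6 with a group mean of at least 2 RPKM. Silent members alone moved from 4 to 2 with that limit, to 8 in osbzip76-1 alone, and, by alternatives added after seeing the data, to 11 at a silent limit of 0.5 RPKM and to 8 without osbzip76-2 replicate 2 and WT replicate 2; leaving out 1 library gave 4 to 8. Lower members moved from 7 to 4, 4, 0 and 3 in the same order, and leaving out 1 library gave 4 to 7. Raised members moved from 6 to 11 at a group mean of 0.5 RPKM, to 3 at 2 RPKM and to 2 at 4-fold, and leaving out 1 library gave 5 to 9. Members detected in mutants alone moved from 1 to 4 at a silent limit of 0.5 RPKM and to 4 at a group mean of 0.5 RPKM. The longest run spanned 7 rows, 7 to 9 without 1 library, and 17 with up to 3 rows skipped; with none skipped, the longest run spanned 6 rows on chromosome 2. Causes were not tested.

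In limma, mutants against WT gave 83 calls, 52 without a filter, 42 with voom and 34 to 108 without 1 library. Calls in osbzip76-1 numbered 82, 38 without a filter, 49 with voom and 17 to 525 without 1 library. In osbzip76-2 they numbered 148, 29 with a pseudocount of 0.1, 282 without a filter and 36 to 529 without 1 library. Without WT replicate 2, calls in osbzip76-1 numbered 525 and in osbzip76-2 529. Between the alleles they numbered 46, then 2, 179 and 9 with a pseudocount of 0.1, no filter and voom, and 0 to 264 without 1 library, 264 being without WT replicate 2 and 0 without either osbzip76-1 library. Members called lower numbered 6, and 3 to 5 without 1 library; members called higher numbered 2, 4 without a filter and 2 to 3 without 1 library. With the replicate number as a block, mutants against WT gave 32 calls, osbzip76-2 against WT 78, and 3 members called lower. Whether the replicate numbers pair the libraries was not settled. Leaving out the 1 osbzip76-2 library allowed no test of that allele. Low read numbers limit members near 1 RPKM.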
